A study of Mus musculus with 374 samples.

Results

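The genes of the primary granule of neutrophils were followed through 5 sorted blood cell populations of 1 mouse. They are Mpo, the serine protease genes Elane, Prtn3 and Ctsg, the granule proteoglycan gene Srgn and the protease inhibitor gene Serpinb1a. They were chosen by name, and all 6 were found among the 19829 mouse genes of the count table. Single cells had been index sorted into 1 plate of 384 wells and read out by CEL-seq2, in which the 3' ends of transcripts are counted by unique molecular identifiers (UMIs). The animal was a female of strain C57BL/6, 10 to 13 weeks old, with no treatment given in the labels. From its bone marrow came 95 progenitor/stem cells (lineage negative, Kit and Sca1 positive, named LSK), 96 granulocytes (Mac1 and Gr1 positive), 96 erythroblasts (Ter119 and CD44 positive) and 44 B lymphocytes (B220 positive, low forward scatter). From its thymus came 43 T lymphocytes (CD3 positive, low forward scatter). Each population is therefore 1 sample, no test between populations is possible, and the 95% intervals given below cover counting error only.

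Primary, or azurophil, granules are the first granules a neutrophil makes. Their proteins are synthesised in a short window, when the cell is a promyelocyte, and the transcripts are then shut off, so that a mature neutrophil carries the proteins without the messages. Granulocyte/monocyte progenitors already transcribe some of these genes before granules are seen. Myeloperoxidase, the product of Mpo, makes hypochlorous acid from hydrogen peroxide. Neutrophil elastase (Elane), proteinase 3 (Prtn3) and cathepsin G (Ctsg) are related serine proteases, serglycin (Srgn) is the proteoglycan core on which they are packed, and Serpinb1a encodes a cytosolic inhibitor of these proteases.

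In GENCODE M21 (GRCm38), Prtn3 lies on chromosome 10 from 79874476 to 79883174 and Elane from 79886247 to 79888215, both on the forward strand and 3072 bases apart. Mpo lies on chromosome 11 from 87793581 to 87804413 (forward), Ctsg on chromosome 14 from 56099881 to 56102574 (reverse), Srgn on chromosome 10 from 62493833 to 62527451 (reverse) and Serpinb1a on chromosome 13 from 32842092 to 32851185 (reverse). Mpo overlaps the gene Gm11505 and Prtn3 overlaps Plppr3, and since no source says that strand was used in counting, part of their counts is uncertain. Serpinb1a has close relatives, Serpinb1b and Serpinb1c, between which reads can be split. Because 4 of the genes are active at the same stage, their promoters are shown, as given by RefSeq on GRCm38.p6, which held 5 of the 6 genes (not Serpinb1a). The letters AGGAAGT, a core that transcription factors of the ETS family such as PU.1 can bind, were found on the strand of the gene within 250 bases before the start of all 4. They are in capitals, and bases inside annotated exons are left out.

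Mpo: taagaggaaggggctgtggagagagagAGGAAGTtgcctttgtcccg
Elane: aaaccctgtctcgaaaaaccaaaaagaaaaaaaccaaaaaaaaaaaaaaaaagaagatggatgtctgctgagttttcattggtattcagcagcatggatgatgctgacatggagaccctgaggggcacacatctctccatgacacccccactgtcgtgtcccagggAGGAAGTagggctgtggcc
Prtn3: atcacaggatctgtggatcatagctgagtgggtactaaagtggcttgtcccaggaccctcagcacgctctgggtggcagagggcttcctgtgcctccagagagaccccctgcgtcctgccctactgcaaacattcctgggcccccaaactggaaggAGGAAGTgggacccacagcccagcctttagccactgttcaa
Ctsg: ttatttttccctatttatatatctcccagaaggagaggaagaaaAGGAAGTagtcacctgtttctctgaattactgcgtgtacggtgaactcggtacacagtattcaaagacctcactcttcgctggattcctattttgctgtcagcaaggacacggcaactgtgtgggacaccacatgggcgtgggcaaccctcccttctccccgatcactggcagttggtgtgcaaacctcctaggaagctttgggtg

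The stretches are chr11:87793534-87793580 for Mpo, chr10:79886062-79886246 for Elane, chr10:79879417-79879613 for Prtn3 (all on the forward strand) and chr14:56102575-56102824 for Ctsg (reverse strand). The match ends 217 bases before the RefSeq start of Mpo, 78 before that of Elane, 88 before that of Prtn3 and 200 before that of Ctsg. The RefSeq starts of Mpo, Elane and Prtn3 lie inside the GENCODE spans given above, as does the whole stretch of Prtn3. The distances are therefore not distances from the GENCODE starts. On either strand it was in 7.69% of the 32851 promoters of the table, and it was not in those of Srgn. The letters were chosen after these promoters had been seen, and the matches are a description of the sequence. Of the other motifs searched on both strands, a C/EBP pattern, TTNCNNAA, was in none of the 4 (36.8% of all promoters), a RUNX core, TGTGGT, was in that of Ctsg (14.0% of all), and a MYB core, AACNG, was in all 4 (74.2% of all).

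Summed over wells, the UMIs on mouse genes came to 834812 for the progenitor/stem cells (median per well 7959), 403506 for the granulocytes (3880), 666728 for the erythroblasts (6114), 135808 for the B lymphocytes (3029) and 200396 for the T lymphocytes (4347). No cell barcode was shared between the 374 wells. The sorted cells carried their own markers, though some were also found in other populations. Erythroblast markers (globin genes, Car2, Alas2 and Slc4a1) took 24.7% of the UMIs of the erythroblasts. Elsewhere these took 1.33% (progenitor/stem cells), 1.60% (granulocytes), 1.84% (T lymphocytes) and 2.92% (B lymphocytes). B lymphocyte markers took 0.956% in the B lymphocytes (at most 0.0309% elsewhere), and T lymphocyte markers 0.396% in the T lymphocytes (at most 0.00736% elsewhere). Kit, Cd34, Flt3, Adgrg1, Meis1 and Hlf took 0.353% of the UMIs of the progenitor/stem cells and at most 0.0230% elsewhere. The granulocyte markers (Ltf, Lcn2, Camp, Ngp, Retnlg, Mmp8, S100a9 and S100a8) took 15.2% of the UMIs of the granulocytes and at most 0.669% elsewhere, a maximum reached in the B lymphocytes through well A8. That well had Gr1 fluorescence of 15209 and was nearest to the granulocytes in expression, and without it the share in the B lymphocytes was 0.297%. In all, 7 of the 374 wells were nearest to a population other than their label.

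A granulocyte well, I13 on the plate, stood apart in these genes and is described first. It held 48 of the 50 Mpo UMIs of the granulocytes, 128 of the 142 Elane UMIs and 63 of the 74 Prtn3 UMIs. Of all 269 granulocyte UMIs on Mpo, Elane, Prtn3 and Ctsg, 240 came from this well. In the other 95 granulocyte wells, no well had more than 2 UMIs of Elane or more than 1 UMI of Mpo, Prtn3 or Ctsg. The levels and ratios of the 6 genes in the granulocytes are therefore given with and without it. The plot of UMIs per well shows this well above every other well of the plate for Mpo, Elane and Prtn3.

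**Figure D1:**
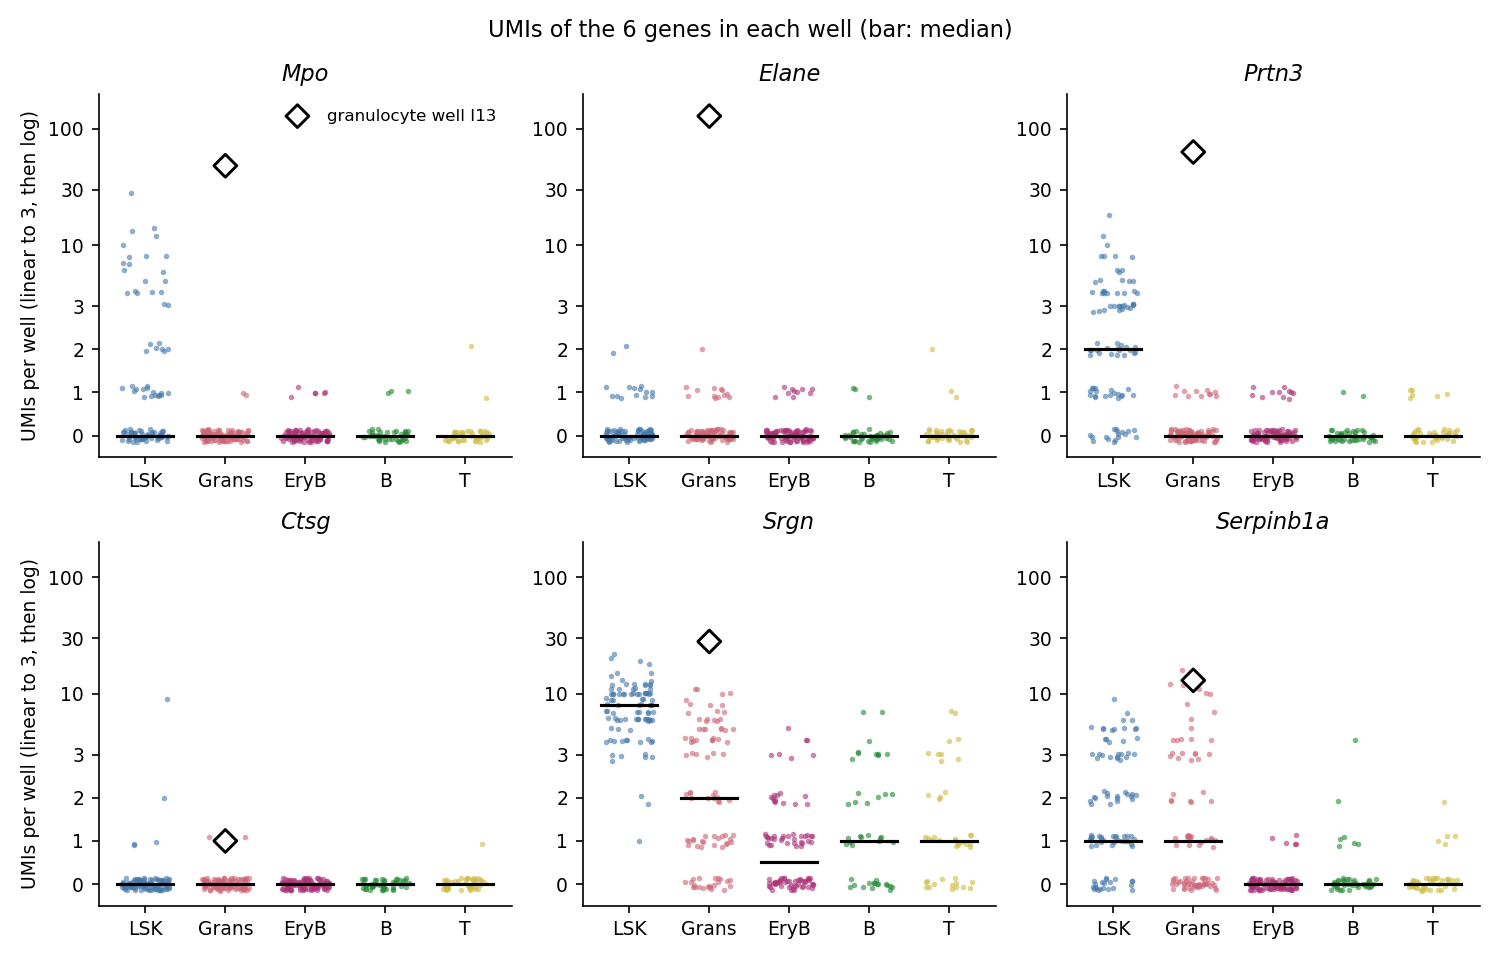
UMIs of each of the 6 genes (vertical axis, linear up to 3 and logarithmic above) in each well of the 5 populations, with a small jitter, the median as a bar and granulocyte well I13 as an open diamond. Well I13 holds 48 UMIs of Mpo, 128 of Elane and 63 of Prtn3, while the highest progenitor/stem cell wells hold 28, 2 and 18.

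Mpo was found mainly in the progenitor/stem cells and in well I13. The UMIs per progenitor/stem cell well ranged from 0 to 28 with a median of 0, and 44 of 95 wells had a UMI (46.3%, exact binomial interval 36.0% to 56.8%). A UMI of Mpo was found in 3 of 96 granulocytes, 6 of 96 erythroblasts, 3 of 44 B lymphocytes and 2 of 43 T lymphocytes. Most wells outside the progenitor/stem cells thus had none. The summed level of the progenitor/stem cells was 231 counts per 1000000 UMIs (CPM), with an exact Poisson interval of 200 to 266. It was 124 CPM (92.0 to 163) for granulocytes, 22.1 CPM (4.56 to 64.6) for B lymphocytes, 15.0 CPM (3.09 to 43.7) for T lymphocytes and 9.00 CPM (3.30 to 19.6) for erythroblasts. The 3 lowest populations did not differ beyond their intervals, and in the granulocytes without well I13 the level was 5.25 CPM (0.636 to 19.0), among them.

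The Mpo ratio of progenitor/stem cells over granulocytes rested on that well. It was 1.87 (exact conditional binomial interval 1.36 to 2.60) with all wells and 44.1 (12.0 to 366) without well I13, with 2 UMIs left in the granulocytes. Within the progenitor/stem cells the message was uneven. There, 10 of the 95 wells held 59.6% of the Mpo UMIs, and 16 of the 44 wells with Mpo had a single UMI.

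Prtn3 was the most widely found protease message of the progenitor/stem cells. The wells ranged from 0 to 18 UMIs with a median of 2, and 78 of 95 had a UMI (82.1%, interval 72.9% to 89.2%). In the granulocytes 12 of 96 wells had a UMI, in the erythroblasts 11 of 96, in the B lymphocytes 2 of 44 and in the T lymphocytes 6 of 43. After each well was thinned to 2000 UMIs, which left out 10 granulocytes, 11 B lymphocytes, 1 erythroblast and 1 T lymphocyte, the share was 46.3% (36.0% to 56.8%) for the progenitor/stem cells and at most 7.14% elsewhere. For Mpo, the same thinning gave 26.3% of progenitor/stem cells and at most 9.09% elsewhere, reached by the B lymphocytes. The level of Prtn3 was 310 CPM (274 to 350) for progenitor/stem cells, 183 CPM (144 to 230) for granulocytes, 29.9 CPM (11.0 to 65.2) for T lymphocytes, 16.5 CPM (8.24 to 29.5) for erythroblasts and 14.7 CPM (1.78 to 53.2) for B lymphocytes. Without well I13 the granulocytes were at 28.9 CPM (14.4 to 51.6), within the range of those other populations. The ratio of progenitor/stem cells over granulocytes was 1.69 (1.30 to 2.22) with well I13, a direction that turned with TMM factors (log2 ratio -0.012), and 10.7 (5.91 to 21.8) without it.

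Elane, the neighbour of Prtn3, had another pattern. The progenitor/stem cell wells held 0 to 2 UMIs with a median of 0, and 15 of 95 had a UMI (15.8%, interval 9.12% to 24.7%). So did 14 of 96 granulocytes, 10 of 96 erythroblasts, 3 of 44 B lymphocytes and 3 of 43 T lymphocytes. At 2000 UMIs per well the share was 3.16% (0.656% to 8.95%) for progenitor/stem cells, and 4.21% (1.16% to 10.4%) for erythroblasts, 2.38% (0.0603% to 12.6%) for T lymphocytes and 0% (0 of 33 wells, up to 10.6%) for B lymphocytes, which should lack the message. The level in the progenitor/stem cells, 20.4 CPM (11.9 to 32.6), was 1.02 times that of the T lymphocytes (0.333 to 4.17) and 1.36 times that of the erythroblasts (0.587 to 3.32). An Elane level of the progenitor/stem cells above this background was thus not detectable at this depth.

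In the granulocytes Elane reached 352 CPM (296 to 415), which is 17.3 times (10.4 to 30.5) the level of the progenitor/stem cells. Without well I13 it was 36.7 CPM (20.1 to 61.6), 1.80 times the level of the progenitor/stem cells, with an interval from 0.823 to 3.89 that includes equality, and the direction turned when UMIs were scaled to ERCC spike-ins (log2 ratio 0.17) or left unscaled (0.28). Outside well I13, the mean number of Elane UMIs per well ran from 0.0682 (B lymphocytes) to 0.179 (progenitor/stem cells). The 48 Elane UMIs found outside well I13 were thus spread thinly over wells of all 5 populations.

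Ctsg was rare everywhere. In the progenitor/stem cells 14 UMIs were found in 5 wells, 9 of them in well M5, for 16.8 CPM (9.17 to 28.1). The granulocytes had 3 UMIs in 3 wells, the T lymphocytes had 1 UMI, and the erythroblasts and B lymphocytes had none. Taken as 3 wells of the total, that allows a share of wells with a UMI of up to 3.13% and 6.82%, and the upper exact binomial limits are 3.77% and 8.04%. The ratio of progenitor/stem cells over granulocytes was 2.26, with an interval from 0.630 to 12.2, and without well M5 its log2 value was -0.30. Well M5 also held 13 UMIs of Mpo and 10 of Prtn3, and none of Elane.

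**Figure D2:**
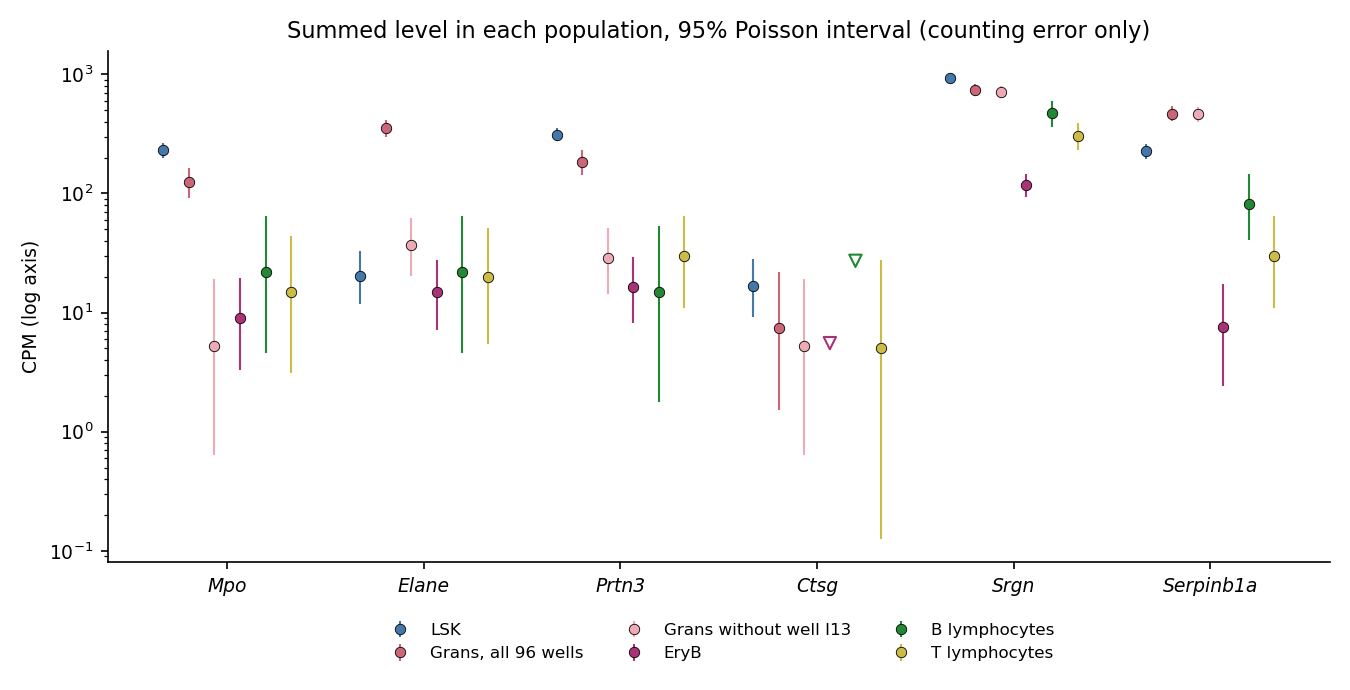
Summed level of each gene in CPM (log axis) in the 5 populations, and in the granulocytes without well I13, with 95% exact Poisson intervals. Open triangles mark the upper limit where no UMI was found. Mpo and Prtn3 in the granulocytes drop from 124 and 183 CPM to 5.25 and 28.9 CPM without well I13, and Srgn and Serpinb1a stay at 709 and 459 CPM.

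Srgn, which is made by many blood cells, was the most abundant of the 6 by UMI count. Counts of 3' ends are compared between genes here as UMIs, with no scaling to length. Every progenitor/stem cell well had a Srgn UMI, from 1 to 22 with a median of 8. The granulocyte wells ranged from 0 to 28 with a median of 2, the highest being well I13 and the next having 11, and 74 of 96 had a UMI. The share of wells was 50.0% of erythroblasts, 63.6% of B lymphocytes and 67.4% of T lymphocytes, whose counts overlapped those of the other populations. At 2000 UMIs per well it was 88.4% of progenitor/stem cells, 57.0% of granulocytes, 57.6% of B lymphocytes, 42.9% of T lymphocytes and 20.0% of erythroblasts. The level was 937 CPM (872 to 1005) for progenitor/stem cells, 739 CPM (657 to 827) for granulocytes, 471 CPM (363 to 602) for B lymphocytes, 304 CPM (233 to 391) for T lymphocytes and 117 CPM (92.5 to 146) for erythroblasts. The intervals of neighbours in this order did not overlap except for those of the B and T lymphocytes. The log2 ratio of progenitor/stem cells over granulocytes was 0.34 (0.15 to 0.54) and 0.40 (0.20 to 0.61) without well I13, but its direction flipped to -0.050 as the mean CPM over wells, -0.43 with TMM factors and -0.94 with scran size factors.

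Serpinb1a, the inhibitor, was found with 188 UMIs in each of the progenitor/stem cells and the granulocytes. The progenitor/stem cell wells ranged from 0 to 9 with a median of 1, and 74 of 95 had a UMI. The granulocyte wells ranged from 0 to 16 with the same median, and 49 of 96 had a UMI, so that the wells of both populations overlapped. At 2000 UMIs per well the share with a UMI was 33.7% of progenitor/stem cells, 39.5% of granulocytes and at most 6.06% elsewhere. The level was 466 CPM (402 to 537) for granulocytes, 225 CPM (194 to 260) for progenitor/stem cells, 81.0 CPM (40.4 to 145) for B lymphocytes, 29.9 CPM (11.0 to 65.2) for T lymphocytes and 7.50 CPM (2.44 to 17.5) for erythroblasts. The intervals of the B and T lymphocytes overlapped, as did those of the T lymphocytes and erythroblasts. It was 2.07 times (1.68 to 2.55) higher in the granulocytes in CPM and 2.04 times (1.65 to 2.52) without well I13, while the mean UMIs per well were equal within counting error, with a log2 ratio of 0.015 in the other direction. Reads may be split with Serpinb1c, which had 15 UMIs in progenitor/stem cells and 6 in granulocytes, and Serpinb1b, with 5 and 7.

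Set against all genes, the members were not all at one side. In the progenitor/stem cells and granulocytes together, 4440 genes reached 50 UMIs. Of these, 42.7% were 2-fold or more higher in the former and 13.7% in the latter, 56.3% in either direction, and the median log2 ratio was 0.76. Ctsg, with 17 UMIs, did not reach that minimum. Of the 5 members that did, none was 2-fold higher in the progenitor/stem cells, and Elane and Serpinb1a were 2-fold higher in the granulocytes. Without well I13, 44.5% of 4361 genes were higher in progenitor/stem cells and 13.6% in granulocytes (58.1% in either direction), Mpo and Prtn3 were among the former and Serpinb1a among the latter, and Elane with 31 UMIs fell under the minimum. With TMM factors the median of all genes moved to -0.012, and the log2 ratio of Mpo was 0.13 and that of Prtn3 flipped to -0.012 with well I13 included. Without that well the log2 ratios were also taken under 5 scalings other than CPM of sums, TMM among them. They were 3.87 to 6.59 for Mpo and 2.35 to 4.56 for Prtn3, and those of Elane ran from -1.62 to 0.28. The TMM and scran factors used there had been computed with the well included.

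**Figure D3:**
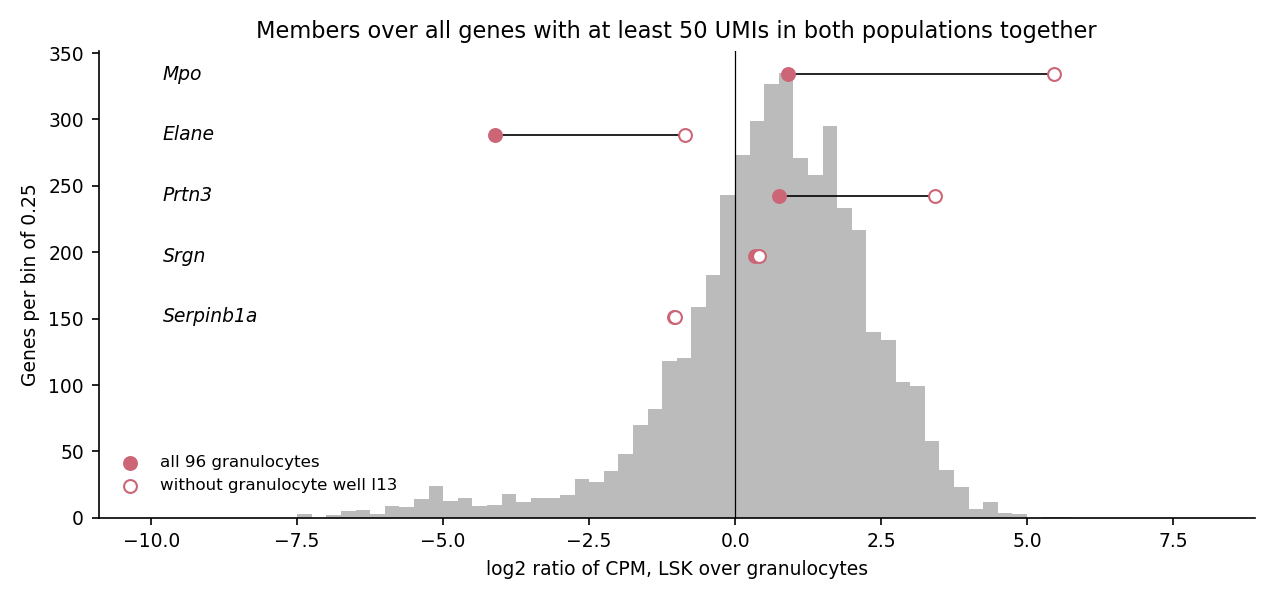
Histogram of the log2 ratio of CPM, progenitor/stem cells over granulocytes, for the 4440 genes that reached 50 UMIs, with sums under 3 UMIs set to 3 (vertical axis, genes per bin). Filled points are the members with all wells and open points those without granulocyte well I13 (where Elane has 31 UMIs), each on a line of its own. Mpo moves from 0.90 to 5.46 and Elane from -4.11 to -0.85, and Srgn and Serpinb1a move by less than 0.10.

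The mix of the 4 messages was compared between well I13 and the progenitor/stem cells. Elane made up 53.3% (46.8% to 59.8%) of the 240 UMIs of well I13 on the 4 genes, Prtn3 26.3% and Mpo 20.0%. In the progenitor/stem cells Prtn3 made up 53.6% (49.1% to 58.1%) of 483 UMIs, Mpo 40.0% (35.6% to 44.5%) and Elane 3.52% (2.06% to 5.58%). In the other granulocytes, with 29 UMIs on the 4 genes, the intervals of all 4 shares overlapped those of well I13. The same held for the erythroblasts (27 UMIs), the T lymphocytes (14) and the B lymphocytes (8), so the overlap sets no population apart. By counting error alone, the order of the genes differed between this well and the sum of the progenitor/stem cells. The well was, however, singled out by these same counts, and a single well is set against a sum of many. The intervals of these shares and of the folds below leave out that choice and the spread between wells. In CPM, well I13 was above the progenitor/stem cells 280-fold (168 to 496) for Elane, 9.26-fold (6.60 to 12.8) for Mpo and 9.06-fold (6.76 to 12.0) for Prtn3. The fold of Elane and its 3.52% share rest on 17 UMIs of the progenitor/stem cells, a level not detectable above the background described above. Ctsg was at 1 UMI in the well.

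**Figure D4:**
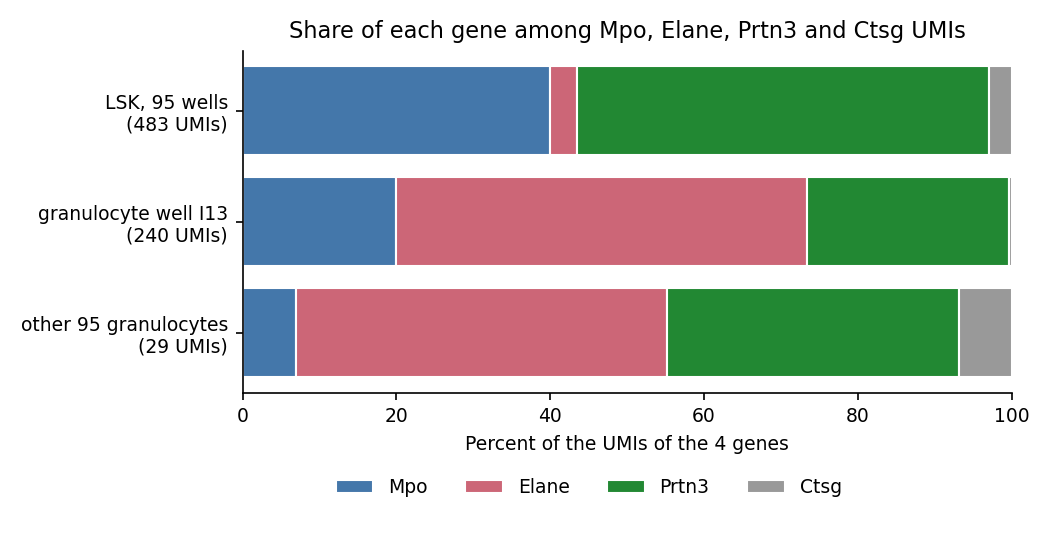
Share of Mpo, Elane, Prtn3 and Ctsg among the UMIs of these 4 genes (horizontal axis, percent) in the 95 progenitor/stem cells, in granulocyte well I13 and in the other 95 granulocytes. Prtn3 and Mpo hold 53.6% and 40.0% in the progenitor/stem cells, and Elane holds 53.3% in well I13. In the other granulocytes Elane holds 48.3% (29.4% to 67.5%), and Mpo and Ctsg hold 6.90% each (0.846% to 22.8%). Their 29 UMIs are too few to place Prtn3 among these.

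The remaining values of well I13 are given beside its protease messages. It had 22425 UMIs on mouse genes, against 8 to 8186 in the other granulocyte wells, and 5526 genes. Its forward scatter area was 227000, above the 68096 to 144000 of the others, and the ratio of its forward scatter height to area was 0.573, below their 0.692 to 0.822, a ratio that is also low when more than 1 cell passes the laser. Its c-Kit fluorescence of 1511 was the highest of the granulocytes, whose other wells reached 1101, and was below the lowest value of the progenitor/stem cells, 2842. Its Gr1 fluorescence of 3007 was higher than that of 17 granulocytes and its Mac-1 fluorescence of 4857 lower than that of 2. The well had the granulocytes as its nearest population, with a Pearson correlation of 0.56 against 0.46 for the progenitor/stem cells. Whether it held 1 cell or more was not tested.

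Well I13 held 5.56% of all granulocyte UMIs. Of the 9 listed genes of granulocyte/monocyte progenitors, 7 had a larger share than that of their granulocyte UMIs in it and 2 a smaller one, Csf3r (7 of 336 UMIs) and Clec12a (6 of 144). The share of all genes above 5.56% was not computed, so this count has no background to be set against. Genes of other lists were on both sides, with Hspa5 at 13.0% and Hexa at 20.0%, and Lyst at 1.56% and Ctsd at 3.51%. Fcnb, a ficolin of immature neutrophils, had 51 of its 93 granulocyte UMIs there, and Ms4a3, a gene of granulocyte/monocyte progenitors, 9 of 12. These genes and the next were named after their values had been seen. Granulocyte markers took 7.30% (6.97% to 7.65%) of its UMIs against 15.6% over the others, with Ngp and Camp, of specific granules, at 201 and 212 UMIs, and Ltf and Lcn2, of the same granules, at 15 and 25. Retnlg and Mmp8, which come on late in maturation, had 6 and 4 UMIs. The progenitor/stem cell markers had 4 UMIs, with Cd34, Adgrg1 and Meis1 at 0. Markers of monocytes and dendritic cells took 0.227% of its UMIs, against 0 to 1.04% over the other granulocytes with a median of 0, and included 41 UMIs of Ccr2. The part of these other messages in the result for Mpo, Elane and Prtn3 was not tested.

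Among the progenitor/stem cells, 49 of 95 wells had at least 2 of the 4 messages. None of them was seen in 10 wells, 1 in 36 wells, 2 in 41, 3 in 8 and all 4 in none. Of the 44 wells with Mpo, 39 also had Prtn3, which was in 78 of 95 wells, and 4 also had Elane. Over the 95 wells the Pearson correlation of log2(CPM + 100) was 0.29 for Mpo with Prtn3, 0.39 for Mpo with Ctsg and -0.17 for Mpo with Elane. These values describe sparse counts of cells of 1 plate and are weak. After thinning to 2000 UMIs they were 0.19, 0.19 and -0.10.

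The index data relate Mpo to Sca-1, the antigen of the gate. The Spearman correlation of Mpo in CPM with Sca-1 fluorescence over the 95 progenitor/stem cells was -0.46, and that of Prtn3 was 0.04. The wells were split at the median of Sca-1 into 47 low wells, up to 5143 arbitrary units, and 47 high wells, from 5185, with median UMI counts of 8223 and 7697. Mpo had 155 UMIs in 31 of the low wells and 38 UMIs in 13 of the high wells, or 357 against 96.5 CPM. That is 3.70 times (2.58 to 5.43) as much in the Sca-1-low wells, and 3.15 times (2.17 to 4.65) without well M15, which has 28 UMIs. Prtn3 was at 355 against 267 CPM, a ratio of 1.33 (1.03 to 1.72), found in 39 wells of each set. Without its highest well, N15, that ratio was 1.20 (0.927 to 1.57). The ratio of low over high wells was 1.18 (1.02 to 1.36) for Srgn and 1.09 (0.809 to 1.47) for Serpinb1a. It was 3.33 (0.880 to 18.6) for Ctsg, with 11 and 3 UMIs, and 0.378 (0.104 to 1.15) for Elane, with 5 and 12 UMIs. The progenitor/stem cell markers were at 0.326% of UMIs in the low wells and 0.383% in the high wells, and granulocyte markers at 0.182% and 0.281%. The medians over wells of the granulocyte markers were 0.213% and 0.200%, and their highest wells were at 0.456% and 2.60%.

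Split by c-Kit in the same way, Mpo was 2.54 times (1.84 to 3.55) as high in the c-Kit-high wells, 335 against 132 CPM, and 2.11 times (1.51 to 2.98) without well M15. Over the wells, however, the Spearman correlation of Mpo in CPM with c-Kit was 0.21, against 0.30 with side scatter, -0.29 with Mac-1 and 0.33 with the total UMI count. From the c-Kit-low to the c-Kit-high wells, granulocyte markers went from 0.270% to 0.190% of UMIs, B lymphocyte markers from 0.0415% to 0.0104% and megakaryocyte markers from 0.00537% to 0.0149%, and their part in the result was not tested. Prtn3 was 1.38 times (1.07 to 1.79) as high in those wells, and 1.25 times (0.961 to 1.63) without well N15. For Srgn the ratio of the c-Kit-high over the c-Kit-low wells was 1.07 (0.929 to 1.24), for Serpinb1a 0.762 (0.563 to 1.03) and for Elane 1.27 (0.421 to 4.01). Ctsg went the other way from Mpo, at 0.165 (0.0179 to 0.739) with 2 and 12 UMIs, and 0.647 (0.0540 to 5.65) without well M5. Intervals here cover counting error only, and cells of 1 mouse share their source.

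Srgn and Serpinb1a divided the granulocytes other than well I13. Over the 95 wells their Pearson correlation was -0.52, and -0.49 over 85 wells thinned to 2000 UMIs. The wells with high side scatter, which rises with granularity, held more Srgn and less Serpinb1a. In the 47 wells with side scatter up to 52288 arbitrary units Srgn had 78 UMIs (340 CPM) and in the 47 wells of higher side scatter 192 UMIs (1292 CPM), a ratio of 3.80 (2.91 to 5.02). Serpinb1a had 147 UMIs (640 CPM) in the low wells and 27 UMIs (182 CPM) in the high wells, 3.52 times (2.33 to 5.53) as much in the low wells, and 3.24 times (2.13 to 5.11) without its highest well, I4. Both sets held wells without either message, and their ranges overlapped.

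Split by Gr1, Srgn was at 416 CPM in the low wells and 1086 CPM in the high wells, a ratio of 2.61 (2.02 to 3.41). Serpinb1a was at 609 and 265 CPM, 2.30 times (1.62 to 3.32) as high in the Gr1-low wells. Other quantities moved with these splits. The median UMI count was 4884 in the wells of low side scatter and 3009 in those of high side scatter. Ngp, Ltf, Camp and Lcn2 took 5.16% of UMIs in the low wells and 2.59% in the high wells, Retnlg and Mmp8 0.866% and 2.39%, and the 6 detected monocyte and dendritic cell markers 0.132% and 0.0182%. Over the 95 wells the Spearman correlation with the share of the 4 specific granule genes was -0.57 for Srgn and 0.66 for Serpinb1a, and with the total UMI count -0.55 and 0.50. The part of maturation, depth and monocytes in these differences was not tested.

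**Figure D5:**
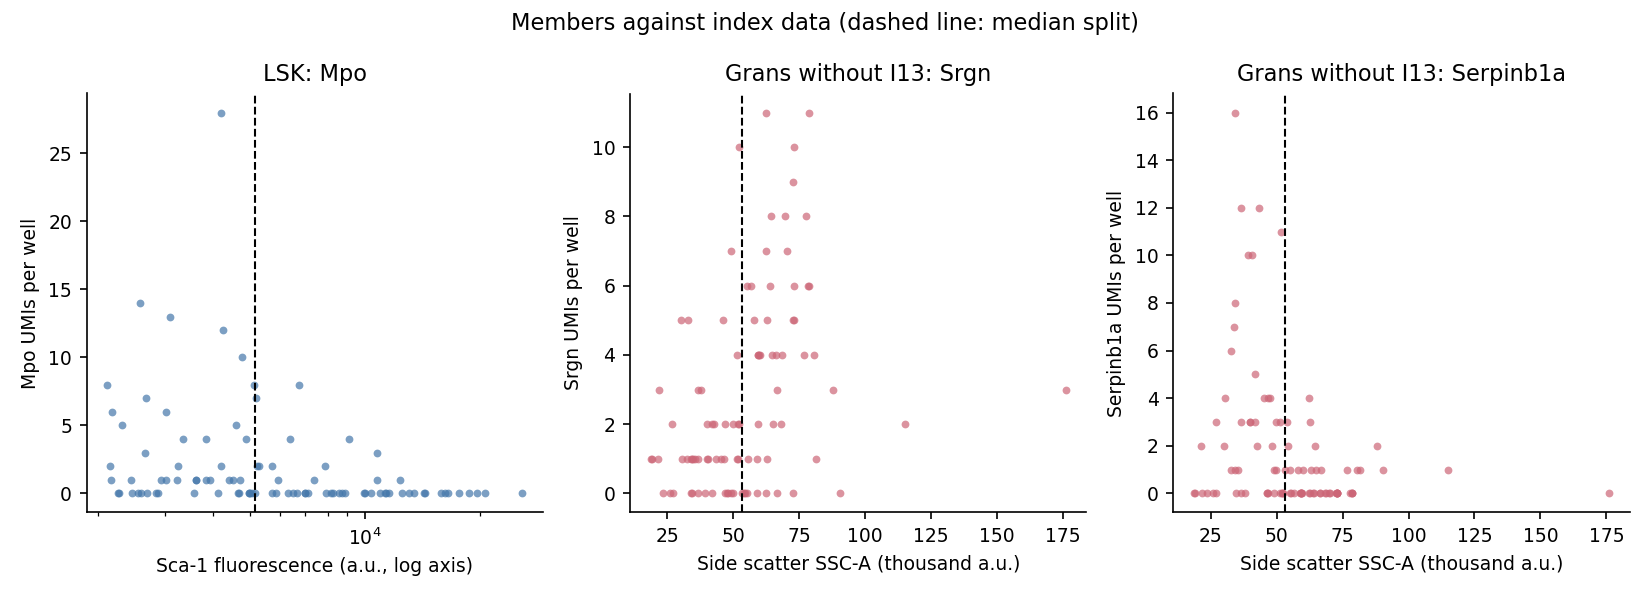
Left, Mpo UMIs per well against Sca-1 fluorescence (log axis) in the 95 progenitor/stem cells. Middle and right, Srgn and Serpinb1a UMIs per well against side scatter in the 95 granulocytes other than well I13. Dashed lines mark the median split, which divides 155 from 38 UMIs of Mpo, 78 from 192 of Srgn and 147 from 27 of Serpinb1a.

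The partners of the members in the granule leaned towards the granulocytes. Of 13 genes of granule partners and other primary granule proteins, 12 were analysed and 9 reached 50 UMIs in both populations together, none was 2-fold higher in the progenitor/stem cells (42.7% of all genes) and 5 were 2-fold higher in the granulocytes (13.7% of all). Their median log2 ratio was -1.08, against 0.76 over all genes. Without well I13 the 5 (Lyz2, Hexa, Man2b1, Ctsd and Ctsc) became 4, without Ctsc. With TMM factors every log2 ratio of sums in this and the next paragraphs falls by 0.77, which turns the sign of Hspa5. With ERCC scaling it rises by 0.96, which turns those of Npc2 and Cstb. The counts past 2-fold are for CPM only and change with these shifts. Among others, TMM takes Calr, Canx, Runx1 and Plac8 under 2-fold, and Npc2 and Cstb past it. ERCC scaling takes Ctsd, Man2b1, Hexa, Ctsc and Irf8 under 2-fold, and Hspa5 and Med16 past it. Lyz2, a lysozyme of granulocytes and macrophages, was at 364 CPM in the progenitor/stem cells and 13041 CPM in the granulocytes (log2 ratio -5.16, interval -5.33 to -5.00). The lysosomal enzymes Ctsd and Man2b1 had log2 ratios of -1.34 (-1.75 to -0.93) and -1.22 (-1.59 to -0.85), and Npc2, a cholesterol carrier, -0.81 (-1.23 to -0.38). Ctsc, which activates the serine proteases, was at 50.3 CPM in the progenitor/stem cells and 107 CPM in the granulocytes, and was named after its values had been seen. Bpi is not analysed here.

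Of the 10 genes for the assembly and sorting of granule proteins, 7 reached the minimum, 2 were higher in the progenitor/stem cells (42.7% of all genes) and 1 in the granulocytes (13.7% of all), with a median log2 ratio of 0.64, near the 0.76 over all genes. Calr and Canx, chaperones that fold myeloperoxidase, had log2 ratios of 1.57 (1.21 to 1.95) and 1.46 (1.05 to 1.89). Hspa5, another chaperone of the endoplasmic reticulum, was at 0.46 (0.11 to 0.81), and Lyst, needed for granules of normal size, at -2.71 (-3.09 to -2.34). Of the 9 transcription factors of the promyelocyte stage, 6 reached the minimum, with Myb and Runx1 higher in the progenitor/stem cells (42.7% of all genes) and Cebpb, Cebpe, Spi1 and Irf8 in the granulocytes (13.7% of all). Myb was at 4.35 (3.56 to 5.27), Runx1 at 1.42 (0.83 to 2.06), Irf8 at -1.35 (-1.92 to -0.80) and Spi1, which encodes PU.1, at -2.01 (-2.31 to -1.72) on the log2 scale. Outside well I13, Irf8 was found in 16 granulocyte wells, and the highest of them held 24 of its 59 UMIs. Spi1 was found in 88. Cebpa is not analysed here.

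Of 13 protease inhibitors, of which 12 were analysed, 3 reached the minimum. Slpi, an inhibitor of elastase, had 1 UMI in progenitor/stem cells and 124 in granulocytes (log2 ratio -8.00, interval -13.32 to -5.50), and none in well I13. Serpina3g had 122 and 2 UMIs (4.88, interval 3.00 to 7.94), Cstb 40 and 27 (-0.48, interval -1.22 to 0.28), and Stfa2, below the minimum, 0 and 41. Of 9 genes of granulocyte/monocyte progenitors, 8 reached the minimum, 3 higher in the progenitor/stem cells (Plac8, Nkg7 and Igfbp4, against 42.7% of all genes) and 5 in the granulocytes (F13a1, Fcnb, Clec12a, Csf1r and Csf3r, against 13.7% of all). Without well I13, Fcnb fell under the minimum and the 5 became 4. Plac8 had a log2 ratio of 1.11 (0.79 to 1.43), Igfbp4 2.35 (1.75 to 3.02), Csf3r, the receptor of granulocyte colony-stimulating factor, -2.70 (-3.03 to -2.38) and F13a1 -5.25 (-6.34 to -4.34). Of the 96 granulocyte wells, 15 had a UMI of F13a1, 18 of Fcnb and 28 of Csf1r, against 64 of Clec12a and 76 of Csf3r. Ccr2, a monocyte marker, was found in 17 of them, and the part of monocytes in these ratios was not tested. Of the 10 listed genes for granule proteins of mast cells, basophils and killer cells, 4 were analysed and none reached the minimum. Cpa3, of mast cells, had 22 UMIs in progenitor/stem cells and 0 in granulocytes, and Mcpt8, Prss34 and Prf1 had at most 3 UMIs over all wells.

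The chromosomal neighbours of the members were read next to them. Of the 15 listed genes 6 were analysed and 3 reached the minimum. R3hdm4 and Arid3a had log2 ratios of -2.42 (-2.92 to -1.94) and -2.89 (-3.45 to -2.36) and Med16 0.92 (-0.02 to 1.97). Prss57, another serine protease of the primary granule near Prtn3, had 10 UMIs in progenitor/stem cells and 5 in granulocytes, 2 of them in well I13, and is also among the granule partners. Tspoap1 and Supt4a before Mpo and Mks1 after it had at most 32.3 CPM in the progenitor/stem cells, and Mcpt8 beside Ctsg had 2 UMIs there. Ptbp1 before Prtn3 had 1 UMI. Vps26a, Kif1bp and Ddx21 around Srgn were at 59.9, 7.19 and 260 CPM, and Wrnip1, Serpinb1c and Serpinb6b around Serpinb1a at 40.7, 18.0 and 26.3 CPM in the progenitor/stem cells.

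The genes whose levels over the 5 populations were most like those of a member, by the Pearson correlation of log2(CPM + 10) over these 5 points among 3906 genes with at least 100 UMIs, also depended on well I13. With all wells they included Plxnc1, Rnh1, Bri3bp and Rnf130 for Mpo (0.98 to 1.00), and were Igf1r, Ifitm1, Bmpr2, Plxnc1 and Dap for Prtn3, and Plbd1, Lyz1, Ly6c2, Slfn4 and Ifitm6 for Elane. Without the well the first were Adgrg1 for Mpo (0.995), Kit for Prtn3 (0.998) and Cfp for Elane (0.999). For Srgn they were Vav3, Rrbp1, Rtn4, Arap1 and Slc35c2, the first 4 of them also without the well, and for Serpinb1a Plek, Aldh2, Snx13, Nbeal2 and Ccl9, again the first 4 also without it. The points share their library and mouse, and with 5 of them many genes come near a correlation of 1. Ctsg had too few UMIs to be compared.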

How the data were processed

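The values the authors deposited are unnormalized whole counts of UMIs, by gene and by well, made with scPipe (alignment, assignment to exons, demultiplexing by designed barcodes, UMI collapse). For aligner version, genome build, annotation and strand, the entry is: not given in the sources used here. In addition the labels give contradicting layouts of read 1. Each column was tied to its sample through the well name; 9 columns tied to none were left unused. Gene symbols came from GENCODE M21, which named 19755 of 19829 IDs.

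Counts were summed per population and scaled to CPM on mouse-gene UMIs. ERCC counts stayed out of totals. Intervals are 95% exact Poisson, binomial and conditional binomial. Sums under 3 UMIs were set to 3 for counts of genes past 2-fold and for medians, and single ratios are without this floor. No doublet caller was run, and no well was removed unless stated. The members and gene lists were chosen with earlier results of these data known. Named genes are the 6 members, the 4 genes with most UMIs of each list, 2 chromosomal neighbours on each side and the 5 most alike genes, of which 1 is not reported here. Any other gene a small count rests on was named after its values were seen. The interval code was tested on simulated data. Python 3.11.15, R 4.3.3, scran 1.30.0 and edgeR 4.0.16 (TMM factors only) were used. Of the alternatives tried, 23 were planned and 6 were added after seeing the data, among them every value without well I13 or without well A8.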

Additional observations from a re-analysis of the deposited data

How the results depend on the processing

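No value has a biological replicate: 1 mouse, 1 plate and 1 sample per population. Depth limits Ctsg everywhere, Elane outside well I13, and any statement on wells without a UMI. No paired analysis was possible because each population is 1 sample and no result comes from a test. Of 155 alternative values, 76 stayed within the counting interval or within 1.5 times the count, 74 moved further and 5 reversed. Where a value moved, the cause was not tested.

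The log2 ratios of progenitor/stem cells over granulocytes are given in the order Mpo, Elane, Prtn3. As the mean CPM over wells they were 2.76, -1.74 and 2.35, with scran size factors 2.35, -2.31 and 1.77, per ERCC UMI 1.86, -3.15 and 1.72, as unscaled UMIs per well 1.96, -3.05 and 1.82, thinned to 2000 UMIs 2.96, -2.23 and 2.70, and without well I13, which is also the granulocyte well with most UMIs of each, 5.46, -0.85 and 3.43. With TMM factors Mpo was at 0.13 and Prtn3 reversed to -0.012. Srgn reversed to -0.050 as mean CPM, -0.94 with scran and -0.43 with TMM, and moved to 1.30 per ERCC UMI and 1.41 unscaled. Serpinb1a moved to -0.65 as mean CPM, -1.78 with scran, -1.82 with TMM and -0.092 per ERCC UMI, and reversed to 0.015 unscaled. Without well I13, Prtn3 was at 2.35 with scran, 4.45 per ERCC UMI and 4.56 unscaled.

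The percent of wells with a UMI is given thinned to 2000 UMIs, thinned to 1000 UMIs and with at least 2 UMIs required. In the progenitor/stem cells it was 26.3, 13.7 and 29.5 for Mpo, 3.16, 3.16 and 2.11 for Elane, 46.3, 29.5 and 63.2 for Prtn3 and 33.7, 21.1 and 49.5 for Serpinb1a. Srgn and Ctsg there moved by thinning, to 88.4 and 64.2 and to 1.05 and 1.05. In the granulocytes it was 5.81, 4.26 and 2.08 for Elane, 5.81, 5.32 and 1.04 for Prtn3, 57.0, 42.6 and 55.2 for Srgn and 39.5, 27.7 and 33.3 for Serpinb1a, and Ctsg was at 0 thinned to 1000 UMIs or with 2 UMIs required.

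Genes past 2-fold numbered 1894 higher in progenitor/stem cells and 607 in granulocytes, so that 75.7% of those past it were on the side of the former. These counts became 3769 and 913 with a minimum of 20 UMIs, 928 and 353 with 100 UMIs, 837 and 289 past 4-fold, and 1047 and 1092 (48.9%) with TMM factors. Of the 25 genes named as most alike, 2 were still named by Spearman correlation, 15 with a minimum of 50 UMIs and 8 without well I13. After thinning, the correlation of Mpo with Ctsg was 0.19 and with Serpinb1a 0.0082. Without B lymphocyte well A8, no level of a member in the B lymphocytes left its interval.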
